A study of Mus musculus with 114 samples.

Results

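The genes described here are receptors for serotonin, histamine, noradrenaline, dopamine, acetylcholine and adenosine in mouse prefrontal cortex. They were taken by symbol. A list of 34 receptor genes was matched to the deposited table of 13101 genes, and 23 had a row in it. These were 8 of 12 serotonin receptors, 5 of 6 noradrenaline receptors and 7 of 9 acetylcholine receptors. The table also held 1 of 2 histamine receptors, 1 of 3 dopamine receptors and 1 of 2 adenosine receptors. The other 11 were not analysed here: Htr1d, Htr1f, Htr4, Htr5b, Hrh2, Adra2a, Drd2, Drd5, Chrna3, Chrna5 and Adora2a. All 23 passed the filter on low counts in every comparison.

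The libraries hold ribosome-associated RNA from Ribo-tag mice, in which a haemagglutinin tag on ribosomes allows RNA of tagged cells to be pulled down from tissue. The design names PV (parvalbumin) interneurons and pyramidal cells of the prefrontal cortex, sampled at ZT2, ZT6, ZT10, ZT14, ZT18 and ZT22 (zeitgeber time, in hours after lights on). No treatment, age, Cre driver or light schedule is given in the labels. In every library the prefix of the title and the entry for cell type contradict each other, and the names PV-titled and C-titled used here follow the prefix. There were 55 PV-titled libraries (28 female, 27 male) and 58 C-titled libraries (29 of each sex), with 8 to 10 and 9 to 10 per time. It is not stated whether libraries are from separate animals, so p-values measure the spread between libraries, which may be partly technical.

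Marker genes placed the PV-titled libraries on the interneuron side. All 5 PV interneuron markers in the table and all 7 GABAergic markers were higher in them, and 9 of 12 pyramidal markers were higher in the C-titled libraries. Summed PV interneuron markers ranged, in CPM (counts per 1000000 counts of the library, TMM-scaled), from 46.7 to 299.5 in PV-titled and from 3.23 to 23.1 in C-titled libraries. PV-titled libraries were not free of other cells. Their summed pyramidal markers ranged from 1537 to 3821 CPM, against 3877 to 7850 CPM in C-titled libraries, and markers of microglia (10 of 10), astrocytes (10 of 10), oligodendrocytes (9 of 9) and vessels (9 of 9) were all higher in them. Markers of other interneuron types were higher in PV-titled libraries for 7 of 8 genes. No marker in these lists had a median of 0 in either set of libraries, and the part of these other cells in the receptor values was not tested. Totals per library ran from 19.1 to 39.5 M reads (median 25.7) in PV-titled and from 24.6 to 44.1 M reads (median 34.4) in C-titled libraries. Library numbers fall into 2 ranges, which were treated as batches, with 26 and 29 PV-titled and 29 and 29 C-titled libraries. By correlation with the others of their prefix, 3 PV-titled libraries (ZT10, ZT14 and ZT22) and 5 C-titled libraries (all ZT2 or ZT6) stood apart.

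The receptors belong to systems that reach the cortex from small groups of cells elsewhere in the brain (serotonin, histamine, noradrenaline, dopamine and acetylcholine), while adenosine is formed in the tissue itself. Most are coupled to G proteins. Receptors coupled to Gq activate phospholipase C, those coupled to Gs raise cyclic AMP and those coupled to Gi lower it, whereas nicotinic receptors and the serotonin channel containing Htr3a are ion channels that open on binding of the transmitter. Several of these transmitters are released more during wakefulness than during sleep, and adenosine builds up with time awake.

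Most of the receptors were higher in C-titled libraries. With TMM-scaled counts and edgeR's quasi-likelihood test, 18 of the 23 were called higher in C-titled libraries, although Chrnb2 turned to the PV-titled side with no scaling beyond library totals. Another 4 were called higher in PV-titled libraries (Htr3a, Adra1a, Htr7 and Drd1), and Adra2c was not called. Over all 13053 genes tested, 87.5% were called, 44.3% toward PV-titled and 43.2% toward C-titled libraries, so a call by itself was common. The median log2 difference was 0.01 over all genes. It moved to 0.21 with no scaling beyond library totals, and differences are given relative to the TMM scale. A difference of at least 2-fold was called for 1 receptor in the PV direction (Htr3a) and for 4 in the C direction (Chrm1, Chrm4, Adra1d and Adra1b), against 22.5% of all genes in either direction, 18% toward PV-titled and 4.54% toward C-titled. The 2-fold call held in 15 of 15 alternative settings for Htr3a, Chrm1 and Adra1d, but in 9 for Chrm4 and 6 for Adra1b. Adra1a, which missed this call, passed it in 5 of them.

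**Figure D1:**
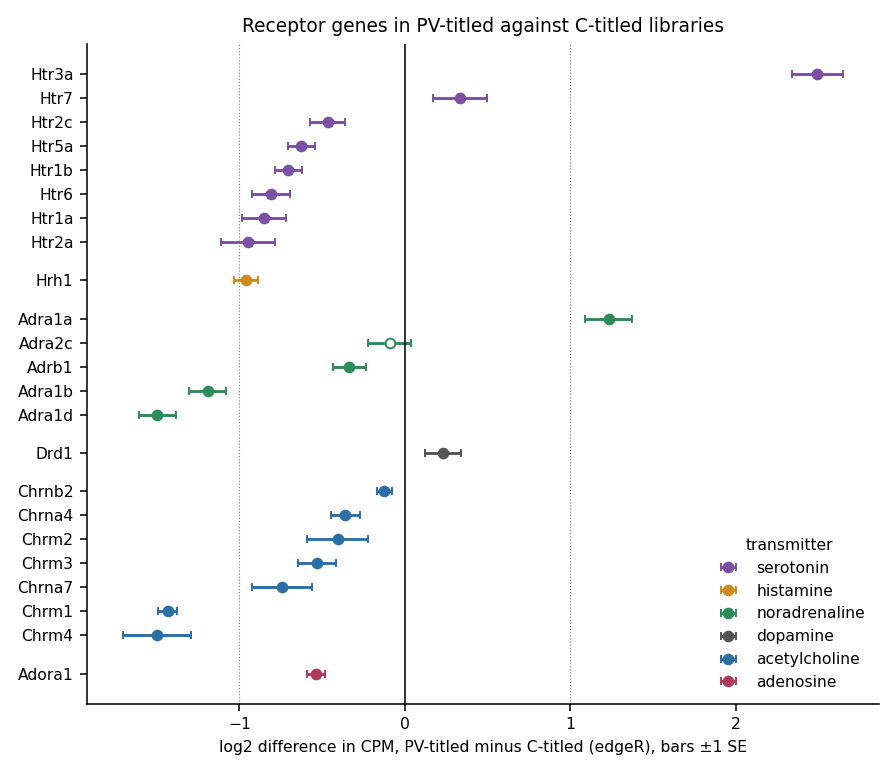
Log2 difference (PV-titled minus C-titled, x axis) of each of the 23 receptor genes (y axis, grouped by transmitter); points are edgeR estimates, bars are ±1 SE, dotted lines mark 2-fold, and the open point (Adra2c) was not called. Htr3a (2.50) and Adra1a (1.23) lie far to the right and Adra1d, Chrm4 and Chrm1 (-1.50, -1.50 and -1.43) far to the left; Chrnb2 (-0.12) changed sign with no scaling beyond library totals.

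Among serotonin receptors, Htr3a stood on the PV-titled side. Htr3a, on chromosome 9 (48899213 to 48911099, minus strand, GRCm38), encodes a subunit of the serotonin-gated cation channel and is known as a marker of cortical interneurons other than PV cells. It ranged from 0.15 to 19.0 CPM (median 6.82) in PV-titled and from 0 to 3.51 CPM (median 1.204) in C-titled libraries. Of the 55 PV-titled libraries, 51 lay above the highest C-titled one. The log2 difference was 2.50 (SE 0.16, edgeR adjusted p = 4.76e-30, adjusted p for at least 2-fold = 3.43e-17). It was 2.44 in the first and 2.57 in the second range of library numbers. Of the markers of interneurons that commonly carry Htr3a, Vip and Ndnf were also higher in PV-titled libraries, by 2.50 and 2.09 on the log2 scale, while Lamp5 was lower (-1.61). Whether the Htr3a reads came from PV cells or from such cells was not tested. In bulk libraries, fewer cells of a type and less RNA per cell cannot be told apart.

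Htr7, a Gs-coupled serotonin receptor, ranged from 0.07 to 14.9 CPM (median 7.26) in PV-titled and from 0.96 to 16.6 CPM (median 5.73) in C-titled libraries. The ranges overlap almost entirely. Its log2 difference of 0.33 (SE 0.16, edgeR adjusted p = 0.0458) was 0.02 in the first range and 0.61 in the second (adjusted p = 0.954 and 0.00604), so the call rested on the second range.

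The other 6 serotonin receptors were higher in C-titled libraries, at all 6 times of day. Htr1a, a Gi-coupled receptor found on pyramidal cells and on serotonin neurons themselves, ranged from 0 to 22.1 CPM (median 10.2) in PV-titled and from 10.7 to 28.7 CPM (median 17.4) in C-titled libraries. In 30 of 55 PV-titled libraries it lay below the lowest C-titled one, and the log2 difference was -0.85 (SE 0.13, edgeR adjusted p = 7.67e-09). Htr1b, a Gi-coupled receptor known from axon terminals, had medians of 12.3 and 19.7 CPM and a difference of -0.70 (SE 0.08, adjusted p = 8.26e-14), with 53 of 55 PV-titled libraries below the C-titled median. Htr5a, also Gi-coupled, differed by -0.62 and the Gs-coupled Htr6 by -0.81. Both stayed called in each range of library numbers.

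Htr2a, the Gq-coupled receptor through which classical psychedelics act, ranged from 0.84 to 19.8 CPM (median 6.32) in PV-titled and from 0.09 to 26.5 CPM (median 13.4) in C-titled libraries. The sets overlap, but 51 of 55 PV-titled libraries lay below the C-titled median. Its log2 difference was -0.95 (SE 0.16, edgeR adjusted p = 9.68e-08). It was -1.42 in the first range and -0.49 in the second, where it was not called (adjusted p = 0.076). Htr2c, its Gq-coupled relative, showed a smaller difference of -0.47 (SE 0.10, adjusted p = 2.88e-05).

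Hrh1, the Gq-coupled histamine receptor blocked by sedating antihistamines, lies on chromosome 6 (114397936 to 114483296, plus strand). It ranged from 7.14 to 41.9 CPM (median 20.5) in PV-titled and from 19.1 to 57.1 CPM (median 37.5) in C-titled libraries. In 53 of 55 PV-titled libraries it lay below the C-titled median. The log2 difference was -0.96 (SE 0.07, edgeR adjusted p = 7.42e-24), and between -1.08 and -0.86 at the separate times.

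The alpha-1 adrenoceptors, which are Gq-coupled, went in both directions. Adra1a, on chromosome 14 (66635251 to 66771168, plus strand), ranged from 0.21 to 18.8 CPM (median 5.58) in PV-titled and from 0.20 to 4.24 CPM (median 2.50) in C-titled libraries. In 33 of 55 PV-titled libraries it lay above the highest C-titled one. Its log2 difference was 1.23 (SE 0.14, edgeR adjusted p = 8.77e-14). It missed the call for at least 2-fold (adjusted p = 0.0617), and was 1.01 and 1.44 in the first and second range of library numbers.

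Adra1d and Adra1b went the other way. Adra1d, on chromosome 2 (131545850 to 131562283, minus strand), ranged from 0.75 to 11.4 CPM (median 5.51) in PV-titled and from 3.44 to 24.3 CPM (median 17.0) in C-titled libraries. Adra1b, on chromosome 11 (43774606 to 43901210, minus strand), ranged from 2.19 to 22.5 CPM (median 12.6) and from 3.64 to 46.2 CPM (median 29.6). For both genes all 55 PV-titled libraries lay below the C-titled median. The log2 differences were -1.50 (SE 0.11, edgeR adjusted p for at least 2-fold = 5.80e-06) and -1.19 (SE 0.11, adjusted p for at least 2-fold = 0.0488).

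The remaining adrenoceptors and the dopamine receptor differed little. Adra2c, a Gi-coupled receptor, ranged from 7.38 to 75.0 CPM in PV-titled and from 5.88 to 74.1 CPM in C-titled libraries, with medians of 35.4 and 40.1 CPM. Its log2 difference was -0.09 (SE 0.13, edgeR adjusted p = 0.513), and its sign varied over the times of day. Adrb1, the Gs-coupled beta receptor, had medians of 41.7 and 50.6 CPM and a difference of -0.34 (SE 0.10, adjusted p = 0.00154), which was -0.67 in the first range and -0.01 in the second (adjusted p = 0.95). Drd1, the Gs-coupled dopamine receptor, had medians of 9.70 and 8.67 CPM and a difference of 0.23 (SE 0.11, adjusted p = 0.0422), which was 0.38 and 0.09 in the first and second range. Drd1 was higher in PV-titled libraries at 3 of the 6 times and lower at the other 3, and its call held in only 5 of 16 alternative settings.

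All 7 acetylcholine receptor genes were called higher in C-titled libraries. With no scaling beyond library totals Chrm2 (-0.20), Chrna4 (-0.16) and Chrnb2 (0.08) were not called. Chrm1, the Gq-coupled muscarinic receptor of forebrain pyramidal cells, lies on chromosome 19 (8663789 to 8683587, plus strand). It ranged from 63.3 to 163.4 CPM (median 98.9) in PV-titled and from 112 to 374 CPM (median 285.8) in C-titled libraries. All 55 PV-titled libraries lay below the C-titled median and 39 below the lowest C-titled library. The log2 difference was -1.43 (SE 0.06, edgeR adjusted p = 7.43e-47, adjusted p for at least 2-fold = 1.07e-12). The 12 pyramidal markers had a median log2 difference of -1.02, from -1.63 for Sv2b to 0.27 for Rorb.

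Chrm4, a Gi-coupled muscarinic receptor, was a low gene. It ranged from 0 to 6.12 CPM (median 1.80) in PV-titled and from 0 to 16.3 CPM (median 5.03) in C-titled libraries, and 51 of 55 PV-titled libraries lay below the C-titled median. The log2 difference was -1.50 (SE 0.21, edgeR adjusted p for at least 2-fold = 0.00811), with -1.99 in the first range and -1.06 in the second. Chrm3, which is Gq-coupled, differed by -0.53 (SE 0.11, adjusted p = 1.58e-05). Chrm2, which is Gi-coupled and known from axon terminals and interneurons, differed by -0.41 (SE 0.18, adjusted p = 0.0348) and was called in neither range alone. A library at 0 reads for a receptor occurred 10 times over 6 of the genes, and 3 counts would there stand for 0.0960 to 0.157 CPM.

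**Figure D2:**
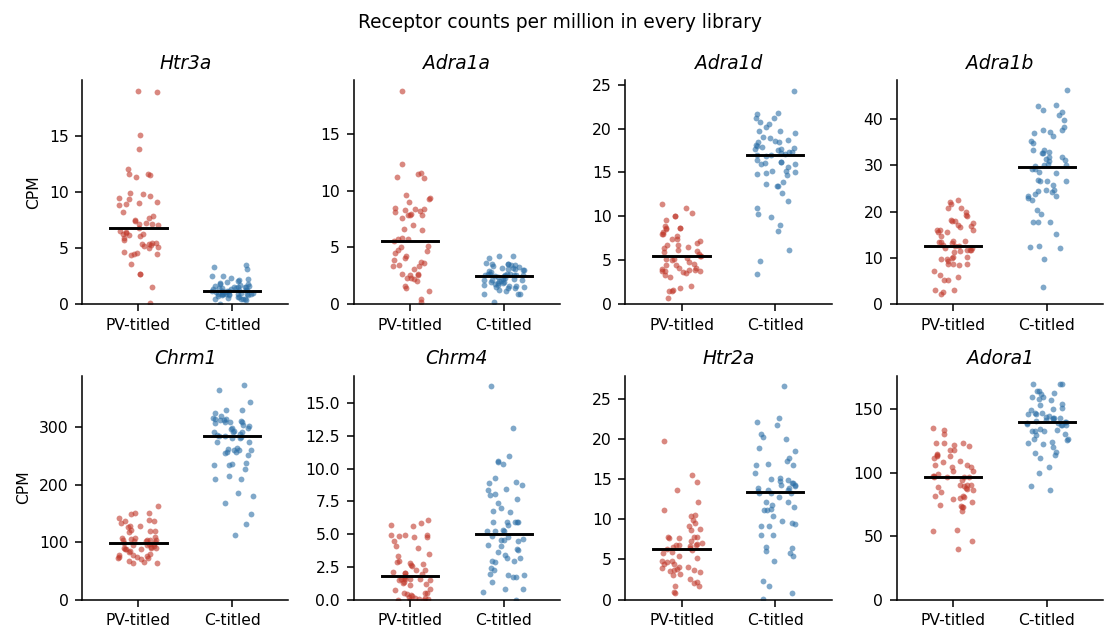
CPM (y axis, linear from 0, TMM-scaled) of 8 receptor genes in each of the 55 PV-titled and 58 C-titled libraries; each point is a library and the bar is the median. Htr3a and Adra1a are higher in PV-titled libraries; for Adra1d, Adra1b, Chrm1 and Adora1 every PV-titled library is below the C-titled median.

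Among nicotinic subunits, Chrna7, which forms homomeric channels, had medians of 2.38 and 3.89 CPM and differed by -0.74 (SE 0.18, edgeR adjusted p = 0.00011). Chrna4 and Chrnb2, which together form the main heteromeric nicotinic receptor of the brain, differed by less. Chrna4 had medians of 21.5 and 25.9 CPM (log2 difference -0.36, SE 0.09, adjusted p = 0.000106), and Chrnb2 had medians of 75.1 and 78.1 CPM (-0.12, SE 0.04, adjusted p = 0.00716). With no scaling beyond library totals Chrnb2 was at 0.08 and Chrna4 at -0.16, and neither was called.

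Adora1, the Gi-coupled adenosine receptor that caffeine blocks, lies on chromosome 1 (134199223 to 134235431, minus strand). It ranged from 39.5 to 135 CPM (median 96.5) in PV-titled and from 86.2 to 170 CPM (median 140) in C-titled libraries. All 55 PV-titled libraries lay below the C-titled median, and 16 below the lowest C-titled one. The log2 difference was -0.54 (SE 0.05, edgeR adjusted p = 1.05e-16), with -0.59 and -0.49 in the first and second range.

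Some of these genes share exon bases with a gene on the other strand. Strand-specific counting is not stated, and without it reads from such bases cannot be told apart. Adora1 shares 1162 bases with Mybph, Chrnb2 shares 1365 with Adar and Htr1b shares 852 with D430036J16Rik. These neighbours differed in the same direction, by -0.45, -0.18 and -0.34 on the log2 scale. Adra1d, Chrm1 and Chrm2 share bases with genes that were not analysed here.

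By coupling, 6 of 7 Gi-coupled receptors and 7 of 8 Gq-coupled receptors were called higher in C-titled libraries, with median log2 differences of -0.62 and -0.95. Over all genes 43.2% were called toward C-titled and 44.3% toward PV-titled libraries, and the classes were not tested against these shares. The 4 Gs-coupled receptors divided evenly (2 in each direction, median -0.05), and of the 4 ion channel subunits 1 was higher in PV-titled libraries and 3 in C-titled ones. The 2 Gs calls toward PV-titled libraries were Htr7 and Drd1, whose calls held in 9 and 5 of 16 alternative settings.

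Levels per kilobase of exon allow the receptors to be ranked within a set of libraries. In PV-titled libraries the highest median levels were 16.7 CPM per kb for Adora1, 15.2 for Chrm1, 12.3 for Adrb1, 10.3 for Adra2c and 8.96 for Chrnb2. In C-titled libraries the same 5 genes led, in the order Chrm1 (44.1 CPM per kb), Adora1 (24.2), Adrb1 (15.0), Adra2c (11.6) and Chrnb2 (9.32). Htr3a ranked 9 of 23 in PV-titled and 22 of 23 in C-titled libraries. For Chrm4 the annotated length of 1440 bases is about that of the coding part alone, so its level per kb, and its share of the muscarinic sum, may be set too high.

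The make-up of the families was compared on the same scale. Of the summed CPM per kb of the 8 serotonin receptors, Htr3a made up 22.8% ± 8.60 (SD, n = 55) in PV-titled and 3.36% ± 1.83 (n = 58) in C-titled libraries. Htr1a made up 14.4% ± 6.59 and 21.3% ± 2.93, and Htr1b 16.7% ± 5.61 and 22.4% ± 4.86. Adra1a made up 9.47% ± 5.81 of the alpha-1 adrenoceptors in PV-titled libraries and 1.84% ± 1.34 of them in C-titled ones, while Adra1d stood at 40.5% ± 9.43 and 49.7% ± 5.603 and Adra1b at 50.02% ± 9.15 and 48.5% ± 5.598. Chrm1 held most of the muscarinic sum in both, 79.8% ± 7.47 and 85.6% ± 4.72. Shares within a family depend on the annotated exon lengths, which were 8728 bases for Adra1a, 3382 for Adra1b and 1899 for Adra1d. All of these shares are given as a description and were not tested.

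**Figure D3:**
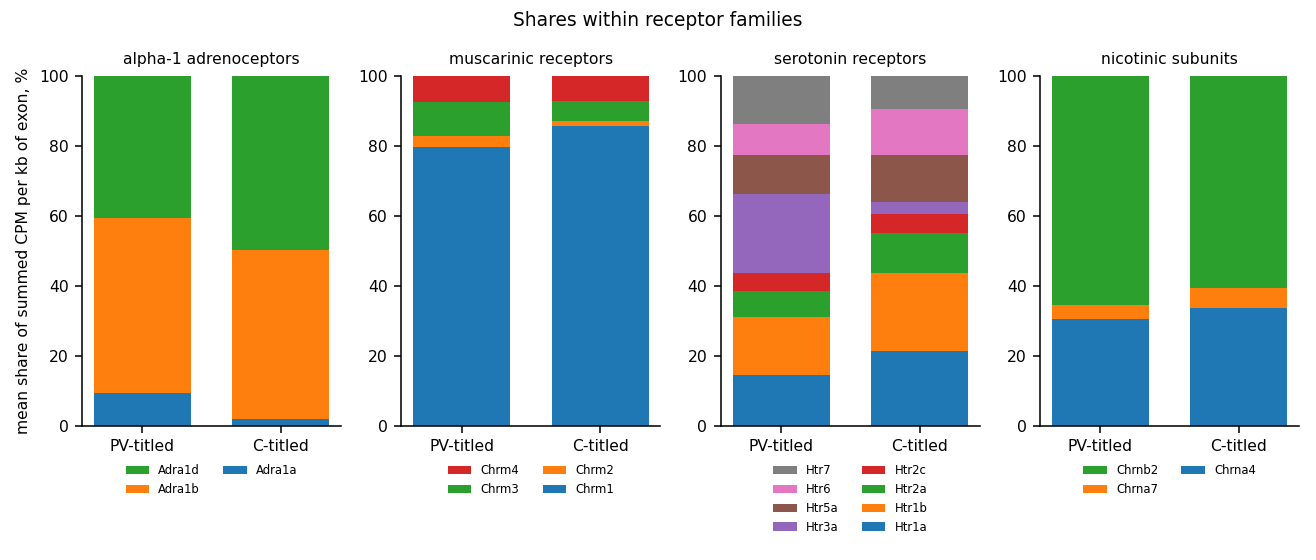
Mean share (%, y axis from 0 to 100) of each gene in the summed CPM per kb of exon of its receptor family, in PV-titled (n = 55) and C-titled (n = 58) libraries, without error bars (SDs of the main genes are in the text). The Htr3a segment is 22.8% in PV-titled libraries and 3.36% in C-titled ones, and Chrm1 fills most of the muscarinic bar in both.

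Over the day, few receptors followed a 24 h rhythm. The rhythm was tested within each prefix by a cosine curve with a 24 h period, and its amplitude is the log2 distance from the mean level to the peak. In PV-titled libraries 2 of 23 receptors were called rhythmic (Chrm1 and Hrh1), against 3.1% of the 13047 genes tested. In C-titled libraries 3 of 23 were called (Htr1b, Hrh1 and Chrm1), against 27% of 13029 genes. Chrm1 and Hrh1 were called in both sets, as were 2.15% of genes tested in both. All of these peaks lay between ZT15 and ZT21. At an unadjusted p under 0.05 there were 3 receptors in PV-titled libraries and 5 in C-titled ones, beside 17.2% and 40.4% of all genes. Median amplitudes were 0.16 for the receptors and 0.11 for all genes in PV-titled libraries, and 0.13 and 0.12 in C-titled libraries, with median SEs for the receptors of 0.13 and 0.08.

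In PV-titled libraries Chrm1 had median levels of 88.7 CPM at ZT2 (lowest 67.0, highest 120, n = 8), 76.9 at ZT6 (65.5 to 107, n = 9) and 102 at ZT10 (72.0 to 148.4, n = 9). The medians were 123 CPM at ZT14 (63.3 to 163.4, n = 10), 103 at ZT18 (73.5 to 151.03, n = 9) and 114 at ZT22 (64.1 to 138, n = 10). The ranges overlap at all times, but 25 of the 29 libraries of ZT14 to ZT22 lay above the median of the earlier times. The amplitude was 0.27 (SE 0.06) with a peak at ZT16.6 (edgeR adjusted p = 0.0143). It was 0.30 and 0.25 in the first and second range of library numbers, and neither was called alone (adjusted p = 0.498 and 0.265). With time as a factor in place of the cosine curve the adjusted p was 0.103. By that test (edgeR) 0 receptors were called in PV-titled libraries, where 1.2% of all genes were, and 3 had an unadjusted p under 0.05, as had 13.5% of all genes. In C-titled libraries 2 were called (Hrh1 and Htr1b), against 10% of all genes.

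In C-titled libraries the Chrm1 medians were 237.1 CPM at ZT2 (112.1 to 314.02, n = 10), 257.8 at ZT6 (131.3 to 303.1, n = 10) and 273.9 at ZT10 (184.8 to 324.4, n = 9). They were 310.2 CPM at ZT14 (281.98 to 374.4, n = 10), 313.4 at ZT18 (251.5 to 330.98, n = 9) and 289.2 at ZT22 (209.2 to 304.4, n = 10). The lowest library of ZT14 lay above the medians of ZT2, ZT6 and ZT10, and the widest spread was at ZT2 and ZT6. The amplitude was 0.23 (SE 0.05) with a peak at ZT15.8 (edgeR adjusted p = 0.00361). Without the libraries that stood apart it was 0.14 (adjusted p = 0.01). The 5 C-titled ones among them were all from ZT2 and ZT6. With time as a factor it missed the threshold (adjusted p = 0.0514), and it was called in the first range alone (0.23, adjusted p = 0.0443) but not in the second (0.26, adjusted p = 0.118).

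In PV-titled libraries Hrh1 medians were 15.1 CPM at ZT2 (9.28 to 31.2, n = 8), 13.9 at ZT6 (7.14 to 21.9, n = 9) and 14.5 at ZT10 (10.5 to 26.0, n = 9). They were 22.8 CPM at ZT14 (13.8 to 28.8, n = 10), 23.2 at ZT18 (14.8 to 41.9, n = 9) and 23.0 at ZT22 (11.9 to 40.8, n = 10). Of the 29 libraries of ZT14 to ZT22, 27 lay above the median of the earlier times, although single libraries overlap. The amplitude was 0.38 (SE 0.09) with a peak at ZT19.4 (edgeR adjusted p = 0.0188). In the first and second range of library numbers alone it was 0.57 and 0.22 and was not called (adjusted p = 0.168 and 0.63).

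In C-titled libraries Hrh1 medians were 38.0 CPM at ZT2 (25.7 to 46.8, n = 10), 30.8 at ZT6 (19.1 to 43.2, n = 10) and 31.6 at ZT10 (22.8 to 53.0, n = 9). They were 42.6 CPM at ZT14 (32.2 to 53.1, n = 10), 43.9 at ZT18 (34.7 to 54.8, n = 9) and 51.4 at ZT22 (26.7 to 57.1, n = 10). The lowest level was again at ZT6, and 26 of 29 later libraries lay above the median of the earlier ones. The amplitude was 0.29 (SE 0.06) with a peak at ZT19.1 (edgeR adjusted p = 0.00136), and it was 0.31 in each range of library numbers, just short of a call (adjusted p = 0.0771 and 0.0542).

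In C-titled libraries Htr1b medians were 18.8 CPM at ZT2 (12.4 to 25.6, n = 10), 16.8 at ZT6 (13.9 to 21.6, n = 10) and 16.1 at ZT10 (11.6 to 23.7, n = 9). They were 16.6 CPM at ZT14 (13.8 to 26.3, n = 10), 22.2 at ZT18 (20.7 to 29.5, n = 9) and 25.2 at ZT22 (15.9 to 33.4, n = 10). The level was still low at ZT14 and high from ZT18, by these medians later than for Chrm1, an order that was not tested. The amplitude was 0.32 (SE 0.05) with a peak at ZT20.6 (edgeR adjusted p = 1.77e-05). It was 0.30 in the first range (adjusted p = 0.0824) and 0.36 in the second (adjusted p = 0.00132). D430036J16Rik, which shares bases with Htr1b on the other strand, had an amplitude of 0.14 in these libraries (adjusted p = 0.117).

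In PV-titled libraries Htr1b medians lay between 10.3 CPM at ZT10 and 16.5 CPM at ZT22, and the ranges at ZT6 (3.30 to 20.7) and ZT22 (8.37 to 19.7) overlapped. The amplitude was 0.17 (SE 0.11) and was not called (edgeR adjusted p = 0.596). The difference in rhythm between prefixes was not called either (adjusted p = 0.696), so a rhythm particular to C-titled libraries was not shown.

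**Figure D4:**
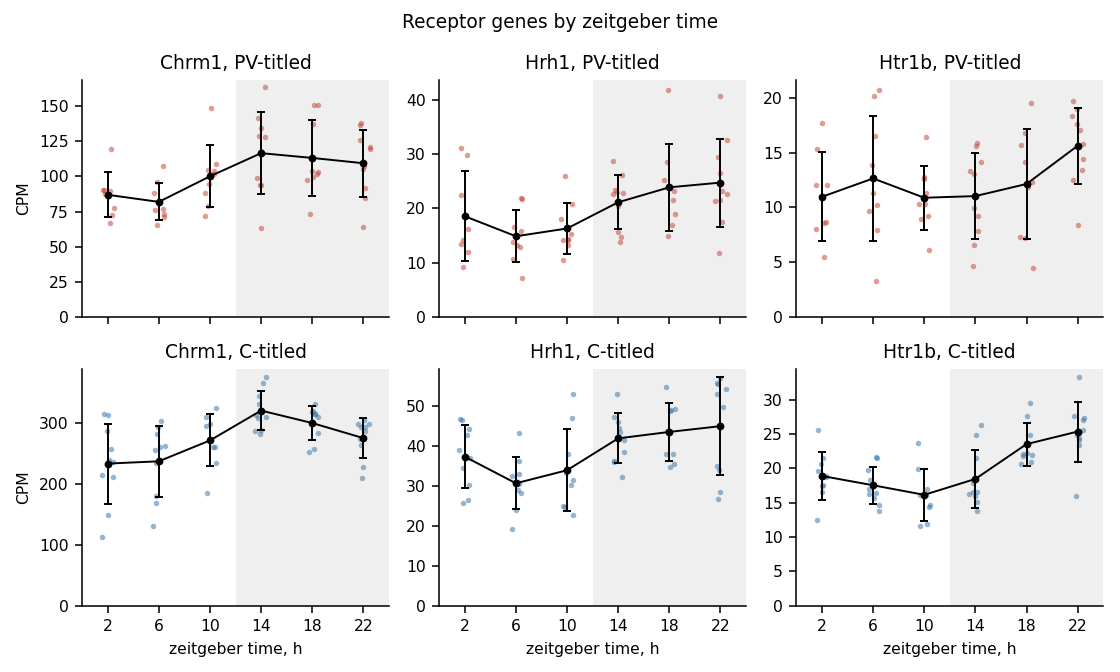
CPM (y axis, linear from 0, TMM-scaled) of Chrm1, Hrh1 and Htr1b by zeitgeber time (x axis, h) in PV-titled (upper row) and C-titled (lower row) libraries; coloured points are libraries, black points and bars are means ± SD of 8 to 10 libraries, and shading marks ZT12 to ZT24. Chrm1 is lowest at ZT2 and ZT6 and Hrh1 at ZT6 and ZT10 in both rows, and Htr1b in C-titled libraries is highest at ZT18 and ZT22.

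Summed pyramidal markers also varied over the day. In PV-titled libraries their median was lowest at ZT14 (2253 CPM) and highest at ZT22 (3148 CPM), and in C-titled libraries lowest at ZT14 (5504 CPM) and highest at ZT18 (6611 CPM). The highest Chrm1 median was at ZT14 in PV-titled libraries, when these markers were lowest there. In C-titled libraries it was at ZT18 (313.4 CPM), when the markers were highest there. The C-titled Chrm1 median at ZT14, when the markers were lowest, was close to it (310.2 CPM). By means, Chrm1 was higher at ZT14 (319.7 CPM) than at ZT18 (299.4 CPM) in these libraries. The part of these markers in the Chrm1 rhythm was not tested.

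The bases before the start of the rhythmic receptors are shown as far as a promoter entry exists, because these genes carry the time-of-day result. RefSeq windows (GRCm38.p6) matched 19 of the 23 receptors, in 26 windows, with Adra1a, Adra1d, Chrm1 and Htr3a unmatched. The first of 4 Hrh1 windows is the plus strand of chr6:114397686-114397935, and the Htr1b window is the minus strand of chr9:81633833-81634082. Each holds the 250 bases before the start, 5′ to 3′, and capitals mark GC boxes.
Hrh1: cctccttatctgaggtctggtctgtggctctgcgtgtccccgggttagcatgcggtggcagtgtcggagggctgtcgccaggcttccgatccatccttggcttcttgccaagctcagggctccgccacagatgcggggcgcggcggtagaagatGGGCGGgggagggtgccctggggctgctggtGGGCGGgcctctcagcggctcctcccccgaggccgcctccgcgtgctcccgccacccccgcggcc
Htr1b: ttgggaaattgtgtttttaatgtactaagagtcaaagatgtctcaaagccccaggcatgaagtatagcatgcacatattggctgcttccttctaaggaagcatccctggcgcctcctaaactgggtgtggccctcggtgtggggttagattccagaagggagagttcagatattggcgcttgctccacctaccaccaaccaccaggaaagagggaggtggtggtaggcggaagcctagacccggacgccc
The Hrh1 window is 71.2% G and C and the Htr1b window 52.4%, against a median of 52.4% over 32851 windows. The motifs searched on both strands were the E-box CACGTG, the cyclic AMP response element TGACGTCA with its shorter form TGACG (contained in it), the D-box TTATGTAA, the GC box GGGCGG and the TATA box TATAAA. Hrh1 held 2 GC boxes and Htr1b none of these motifs. Over the receptor windows an E-box was found in 2 of 26 (Adra2c and Chrna7), against 6.02% of all windows, and a GC box in 13, against 32.7%. TGACG was found in 3 (Adrb1, Chrnb2 and Htr7), against 17.8%, and the full element, the D-box and the TATA box in 0, against 1.55%, 0.819% and 12.4%. A match is a description of the letters only.

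Other receptors reached an unadjusted p under 0.05 without passing the adjusted threshold. In PV-titled libraries the Htr3a median was lowest at ZT6 (5.41 CPM) and highest at ZT18 (8.82 CPM), with an amplitude of 0.37 (SE 0.14, edgeR adjusted p = 0.265). In C-titled libraries Chrm4 medians ran from 2.61 CPM at ZT2 to 6.83 CPM at ZT14 (amplitude 0.40, SE 0.15, adjusted p = 0.103), and Htr1a medians from 16.2 CPM at ZT10 to 21.1 CPM at ZT22 (amplitude 0.14, SE 0.05, adjusted p = 0.0621). The Htr1a amplitude passed the threshold without the libraries that stood apart.

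The rest showed no called rhythm. In PV-titled libraries the largest amplitude SEs were those of the low genes Chrm2, Chrm4 and Chrna7 (0.25, 0.23 and 0.23). In C-titled libraries SEs did not simply follow level, with 0.06 for Htr6 (median 5.89 CPM) and 0.14 for Adra2c (median 40.1 CPM). Chrm2 in PV-titled libraries had the largest ratio of highest to lowest median over the day, 3.30. Its medians ran from 1.62 CPM at ZT14 to 5.34 CPM at ZT22, with an amplitude of 0.36 (SE 0.25, edgeR adjusted p = 0.678). Chrnb2 had the smallest amplitude in PV-titled libraries, 0.05 (SE 0.04), with medians from 68.2 to 77.7 CPM. Adora1 medians ran from 81.2 CPM at ZT10 to 113 CPM at ZT18 in PV-titled and from 132 CPM at ZT2 to 146.4 CPM at ZT10 in C-titled libraries, with amplitudes of 0.09 (SE 0.07) and 0.08 (SE 0.04) that were not called. Adrb1 (0.13 and 0.09), Adra1b (0.12 and 0.04) and Chrna4 (0.15 and 0.05) had small amplitudes in PV-titled and C-titled libraries respectively. Adra2c medians were highest at ZT18 in PV-titled (47.9 CPM) and at ZT14 in C-titled libraries (55.2 CPM), with amplitudes of 0.23 (SE 0.12) and 0.27 (SE 0.14).

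**Figure D5:**
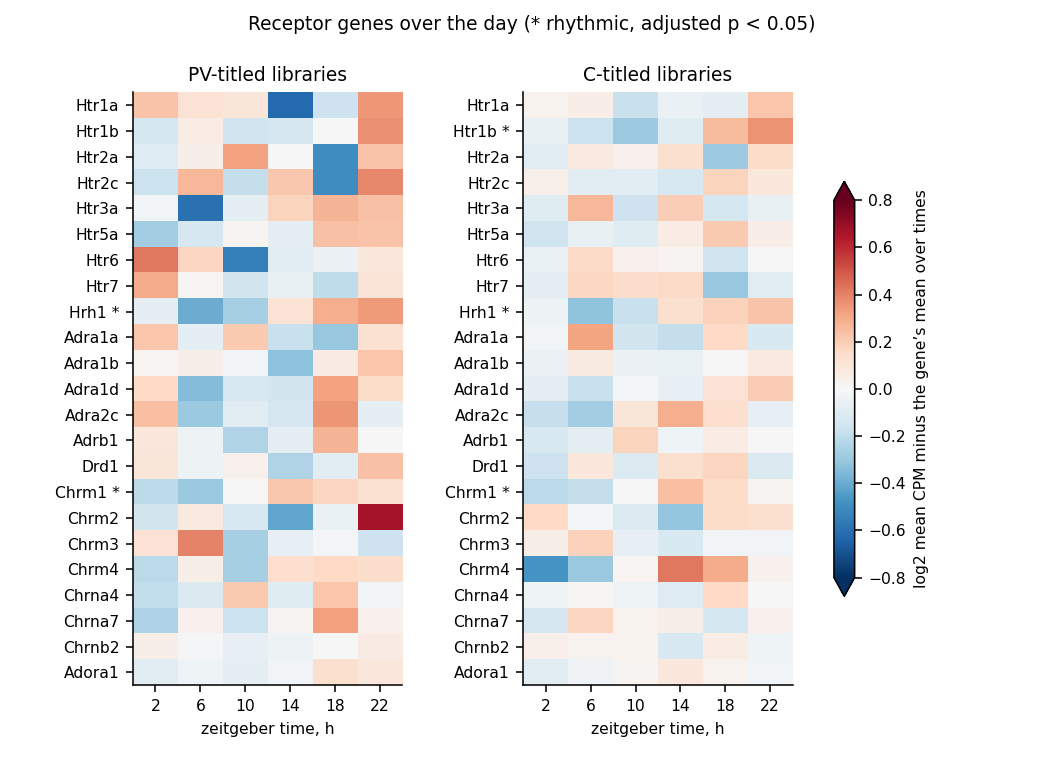
Log2 of the mean CPM at each zeitgeber time (x axis, h) minus the gene's mean over the times (colour, scale from -0.8 to 0.8) for the 23 receptors (y axis) in PV-titled (left) and C-titled (right) libraries; an asterisk marks a rhythm called at adjusted p under 0.05. Chrm1 and Hrh1 are marked in both panels and Htr1b in the right one.

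No receptor was called as differing in rhythm between prefixes by edgeR's test of the interaction, against 0.559% of all genes. None reached an unadjusted p under 0.05 either, and the lowest, for Htr3a, was 0.0799 (adjusted p = 0.432). No receptor differed between female and male libraries in either prefix (0.0307% of all genes were called in PV-titled libraries and 0.184% in C-titled ones), and none at an unadjusted p under 0.05. The largest sex difference (log2, male minus female) in C-titled libraries was -0.29 for Htr2a (SE 0.21), and in PV-titled libraries 0.26 for Chrna7 (SE 0.33), so differences of that size are within the error for these genes. No receptor showed a prefix difference that varied with sex, and 0% of all genes did. The lowest unadjusted p of a receptor in that test was 0.0927, and 2.93% of all genes had an unadjusted p under 0.05.

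Genes that act with these receptors were taken from 8 lists. They covered other receptors of the same transmitters, G protein alpha subunits, adenylyl cyclases and phosphodiesterases, the phospholipase C branch, desensitisation, GIRK channels, nicotinic accessory proteins, and transmitter enzymes and transporters. Of 75 such genes in the table, 62 were called between prefixes, 24 toward PV-titled and 38 toward C-titled libraries, beside 44.3% and 43.2% of all genes. Among 11 G protein alpha subunits 7 were higher in C-titled and 2 in PV-titled libraries. Gnai1, a Gi subunit, passed 2-fold with medians of 171.8 CPM in PV-titled libraries and 398.5 CPM in C-titled ones (log2 difference -1.16, SE 0.05). Among 16 cyclases and phosphodiesterases 8 were higher in PV-titled libraries and 5 in C-titled ones, and Pde1a, a calcium-activated phosphodiesterase, was lower in PV-titled libraries by 2-fold or more (-1.12, SE 0.05).

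The phospholipase C branch, which lies downstream of Gq, went both ways (3 of 9 higher in PV-titled, 6 in C-titled libraries). Plcb3, a phospholipase C, had medians of 13.3 and 2.32 CPM (2.51, SE 0.13), and Itpr2, an inositol trisphosphate receptor known for its role in astrocytes, 35.4 and 5.98 CPM (2.51, SE 0.10). The astrocyte markers, given above, were higher in PV-titled libraries by a median of 1.81, and their part in Itpr2 and Plcb3 was not tested. Among 16 genes of desensitisation and RGS proteins 4 were higher in PV-titled libraries and 7 in C-titled ones. Grk3, a receptor kinase, was higher in PV-titled libraries (1.14, SE 0.05), and Rgs4 and Rgs14, which speed G protein shut-off, were lower in them (-1.32 and -1.29).

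Of the 6 nicotinic accessory genes, 5 were higher in C-titled libraries, and Tmem35a, a chaperone needed for assembly of Chrna7 channels, differed by -1.15 (SE 0.07), beside -0.74 for Chrna7 itself. Of 3 GIRK channel genes 1 was higher in PV-titled libraries and 2 in C-titled ones. Of 12 enzymes and transporters 5 were called in each direction, with Entpd2, which breaks down extracellular ATP, at medians of 8.20 and 1.202 CPM (2.70, SE 0.12). Of the 2 other receptors in the table, Hrh3 was higher in C-titled libraries (-0.84) and Adrb3 in PV-titled libraries (0.18).

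Over these lists 1 of the 75 genes was rhythmic in PV-titled libraries and 20 in C-titled ones, beside 3.1% and 27% of all genes, so neither share stood above the background. The gene rhythmic in PV-titled libraries was Hrh3, a Gi-coupled histamine receptor, which also peaked at ZT16.0 in C-titled libraries (amplitude 0.46, SE 0.05, edgeR adjusted p = 1.85e-08). The fitted Hrh3 peaks lay near those of Chrm1 (ZT16.6 in PV-titled and ZT15.8 in C-titled libraries). They were earlier than those of Hrh1 (ZT19.4 and ZT19.1), but the order of peaks was not tested. Arrb1, an arrestin, came next in PV-titled libraries and was not called (0.18, edgeR adjusted p = 0.0509). In C-titled libraries Slc29a4, a monoamine transporter, peaked at ZT13.9 (amplitude 0.54, SE 0.09) and Maoa, which breaks down serotonin and noradrenaline, at ZT10.2 (0.23, SE 0.04). Neither differed in rhythm between prefixes by the interaction test (adjusted p = 0.526 and 0.424).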

How the data were processed

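The authors deposited whole-number counts of reads per gene in 1 table. The submitters' processing notes name FastQC, HTSeq, DESeq2 and GRCm38, without versions. The read aligner is not given in the sources consulted, and neither is the gene annotation. Of 114 libraries in the labels 113 were used, and 1 column was left out because the sex in its name differs from the title it would fit. Reads assigned to no gene (median 61.2% for PV-titled, 52.8% for C-titled libraries) were kept out of totals and tests. Positions and exon lengths came from GENCODE vM21.

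Differences were tested with edgeR 4.0.16 (R 4.3.3) by quasi-likelihood F tests over all genes after filterByExpr and TMM scaling, with Benjamini-Hochberg adjustment and a threshold of 0.05. The fit for the prefix also held sex, number range and the 6 times as categories, and glmTreat tested at least 2-fold. Rhythm was the cosine and sine of 24 h with sex and range. Amplitude SEs took both terms as uncorrelated. Tests were checked on simulated counts with independent libraries and few changed genes. That setting is simpler than the data, where 87.5% of genes were called between prefixes. Members and lists were chosen with earlier results of these data known. All members in the table are named, as are, per pathway list, up to 2 genes per direction with the largest difference past 2-fold and, over all lists, the genes with the 3 lowest rhythm p-values per prefix. A gene that this rule names is not reported here. Alternatives included DESeq2 1.42.0. Leaving out the libraries that stand apart was added after seeing the data. The floors given for libraries at 0 cover counting error only, whereas SEs and SDs include the spread between libraries.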

Additional observations from a re-analysis of the deposited data

Results flagged for a closer look

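Among 36 sets of libraries of 1 prefix and time for Chrm1, Hrh1 and Htr1b, 2 held a library far from the others by Dixon's criterion, which chance passes in about 1 of 20 sets. Both were high values of Chrm1 in PV-titled libraries. At ZT2 the highest library had 119.6 CPM, against 90.5 CPM for the next (n = 8), and at ZT10 the highest had 148.4 CPM, against 108.5 CPM for the next (n = 9). Both times precede the fitted peak at ZT16.6.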

How the results depend on the processing

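The count of receptors higher in PV-titled libraries, 4 as reported, stayed at 4 with no scaling and with no filter. It was 2 with RLE scaling and 2 in male libraries alone, 2 to 3 with each title number left out and 3 with a replicate block, no batch term, either range, female libraries alone, DESeq2 or without the libraries that stand apart. Those at least 2-fold higher there numbered 1, but 2 with no scaling beyond library totals, 2 with no batch term and 2 in the second range (1 to 2 with a number left out). In the C direction 4 became 2 under each of these 3 settings and in male libraries (2 to 4 with a number left out). Chrnb2 reversed from -0.12 to 0.0786 with no scaling. Receptors rhythmic in PV-titled libraries went from 2 to 0 in either range, in either sex and with time as a factor (0 to 2 with a number left out), and in C-titled libraries from 3 to 1 in either range, 0 in female and 1 in male libraries (2 to 4). These subsets hold fewer libraries.

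Among single receptors, the 4 PV-ward calls included Htr7, held in 9 of 16 alternatives, and Drd1, held in 5. Chrm2 held in 9 and Adrb1 in 12. The rhythm call held in 10 of 17 alternatives for Chrm1 and 9 for Hrh1 in PV-titled libraries, and in 12, 13 and 15 for Chrm1, Hrh1 and Htr1b in C-titled ones. Over all genes the share called rhythmic, 3.1% in PV-titled and 27% for C-titled libraries, ranged from 0.0613% to 4.39% and from 2.07% to 28.7%. The 0.559% with a rhythm difference ranged from 0% to 1.71%, and the 4.54% at least 2-fold higher in C-titled libraries from 2% to 5.04%. The causes were not tested.

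Title numbers are shared between prefixes. In 53 same-numbered pairs the correlation of deviations ranged from -0.379 to 0.376 (median 0.087), with 26 over 0.1. Pairs with different numbers were not compared, so whether the numbers pair libraries was not tested. With a replicate block the counts were 3 and 18 for the prefix and 2 and 3 for the rhythm, and the 73 genes with a rhythm difference became 24.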
